A study of Saccharomyces cerevisiae with 6 samples.

Results

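The genes of histidine, arginine, aromatic and aspartate-family amino acid synthesis in the yeast Saccharomyces cerevisiae were compared between cells floating as a biofilm and cells settled below them. The set holds 39 genes named by pathway membership, with the amino acid transaminase gene ALT1 and the activator gene GCN4, out of 5656 genes that a probe set of the array named alone. For 38 of the 39 such a probe set was present, and the brightest was used. ARG56, which encodes a double enzyme of ornithine synthesis, had no probe set paired with it alone and was not analysed here. After genes with dim signals were left out, 36 of the 38 were tested among 4242 genes. HIS6 and AAT1 fell under that limit and are described by their signals.

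All samples came from strain 3238-32, with the genotype given in the labels as MATa leu2∆1 lys2-801 ura3-52. Cells were grown for 24 h at 30°C in YEPD until sugar was used up, washed, and diluted by a factor of 10 in Flor medium (100 ml in a 250 ml beaker), which is YNB with 4% ethanol to which leucine, histidine and uracil were added. After 48 h of static growth at 27°C the biofilm on the surface (floaters) was aspirated, and then the layer at the bottom (sinkers). RNA from each group went onto 3 arrays, 1 per sample. The labels mention 3 beakers but do not say which beaker an array came from, so the p-values below reflect only how far these 3 samples of a group differ, which may be technical. Both groups share strain, mutations, medium and time; of the amino acids made by these pathways, histidine is the one that the labels list as added. In bulk RNA, fewer cells of a kind and less RNA per cell cannot be told apart.

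The label's mating type did not match the marker genes. Of the 6 a-specific genes none passed the limit on dim signals, and their summed signal was 84.1 to 119 in the biofilm and 210.2 to 278 in the bottom layer. The receptor gene STE2 lay between 0.862 and 9.88 on the 6 arrays. MFA1, of the same list, was brighter in the bottom layer, at 116, 123 and 108 against 13.9, 18.2 and 6.87 in the biofilm. All 4 alpha-specific genes were tested, with a summed signal of 5228 to 6357 in the biofilm and 3697 to 5526 in the bottom layer. They moved both ways. The log2 fold changes (biofilm minus bottom layer) were 1.15 for MF(ALPHA)1, 0.75 for STE3, -0.71 for MF(ALPHA)2 and -2.12 for SAG1. Of the auxotrophy genes, URA3 was dim, at 26.3, 32.1 and 32.5 on the biofilm arrays and 16.9, 15.1 and 16.8 on the bottom layer arrays, while LEU2 read 5441, 5712 and 4962 against 8554, 7039 and 11805 and LYS2 1044, 818 and 1391 against 525, 324 and 637. Where these probe sets lie relative to the mutations is not given in the sources used here, so bright signals check nothing about the alleles.

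Yeast makes histidine from ribose phosphate and ATP, arginine from glutamate through ornithine, the aromatic amino acids through shikimate and chorismate, and asparagine, threonine, homoserine and the start of isoleucine from aspartate. Many of these genes are known targets of Gcn4, the activator of the general amino acid control, whose own synthesis is known to be set mainly at the translation of its mRNA. Some of the arginine genes, but not all, are in addition repressed by the ArgR/Mcm1 complex when arginine is plentiful.

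Deposited signals had a median of 128 to 151 on the 6 arrays and had been scaled to a common mean. The third bottom layer array stood apart: its 9 spiked hybridisation controls had a geometric mean signal of 2020 against 397 to 712 on the other 5 arrays. Its ACT1 3′ to 5′ signal ratio, a measure of RNA integrity and labelling, was 3.84 against 1.54 to 2.04 in the biofilm and 1.80 and 2.36 on the other bottom layer arrays. The same ratio for the TATA-binding protein control was 6.48, 11.9 and 12.9 in the biofilm and 7.15, 4.52 and 8.69 in the bottom layer, so by that ratio the third bottom layer array lay within the range of the others and 2 biofilm arrays were highest. The 5 probe sets for 18S ribosomal RNA had geometric mean signals of 716 to 1014 in the biofilm and 3343 to 4699 in the bottom layer. Without the third bottom layer array 28 of 36 genes of the set were called higher and 2 lower, beside 37.3% and 25.5% of all genes. With the ACT1 ratio as a covariate the counts were 27 and 2, beside 34.1% and 24.5% of all genes. The part of ribosomal RNA signal in the changes was not tested.

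Most genes of the set were higher in the biofilm. Of the 36 tested, 29 changed at an adjusted p below 0.05 in the limma fit, where 62.5% of all genes tested did. Of these 27 were higher, where 38.0% of all genes were. They include ARO7 and PHA2, which passed the limit on dim signals only through the biofilm. CPA1 and ARO3 were lower, where 24.4% of all genes were, and 7 did not pass. In 17 of the 36 the rise was at least 2-fold, a size reached by 19.4% of all genes. All 3 biofilm signals lay above all 3 bottom layer signals for 27 of the 36, and below them for 2, where 41.3% and 26.7% of all genes did so, together 68.0%. The median log2 fold change of the 36 was 0.94 and that of all genes tested 0.17, with quartiles of all genes at -0.49 and 0.82. Centring each array on its median moved the median of all genes to -0.026, the split of all calls from 60.9% to 49.5% higher, and the set to 23 higher and 3 lower, beside 30.9% and 31.4% of all genes. Fold changes are on the scale log2(signal + 16) and understate the change of dim genes. The members were listed with earlier results of these data known, so these counts describe the set and are not a test of it.

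**Figure D1:**
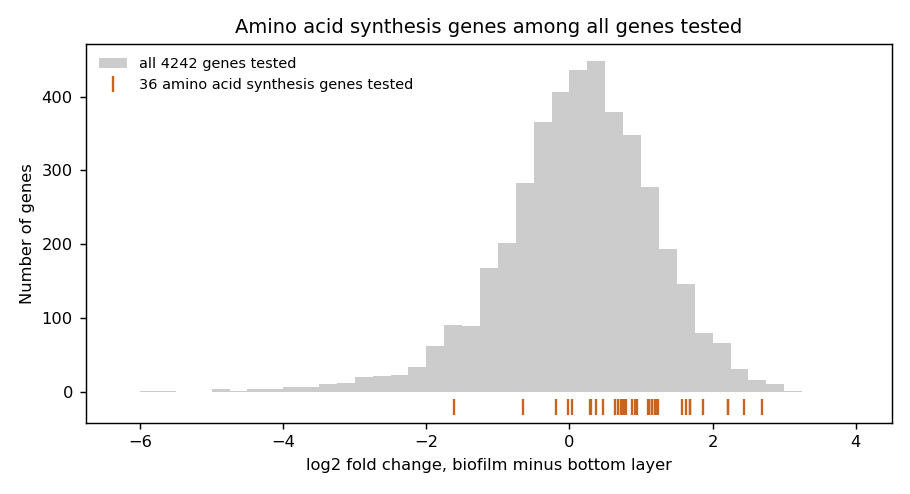
Distribution of the log2 fold change (biofilm minus bottom layer, x axis) over all 4242 genes tested (grey bars, number of genes on the y axis), with a tick for each of the 36 amino acid synthesis genes tested. The ticks run from -1.61 for CPA1 to 2.69 for ASN1, with a median of 0.94 against 0.17 for all genes.

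**Figure D2:**
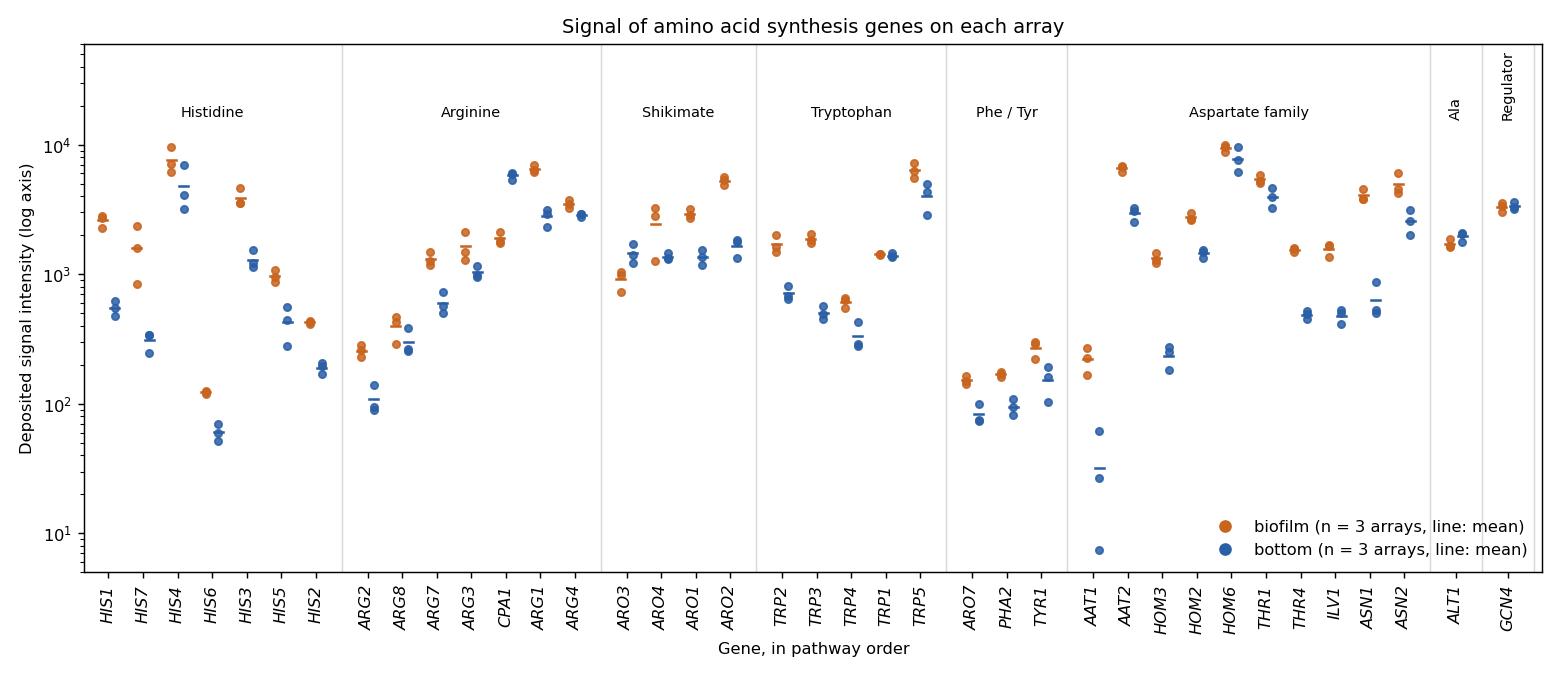
Deposited signal intensity (log axis) of the 38 genes with a probe set, in pathway order, with a point for each of the 3 biofilm and 3 bottom layer arrays and a line at the group mean. Most genes have all biofilm points above all bottom layer points, CPA1 and ARO3 have them below, and TRP1, ALT1, HOM6, HIS4, ARG8, ARO4 and GCN4 overlap.

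Of the 7 genes of histidine synthesis, 6 were tested and all 6 passed as higher in the biofilm (median log2 fold change 1.39). Among all genes tested 38.0% were higher, and the median was 0.17. The groups overlapped for HIS4, whose call was lost under several alternatives. HIS1 (YER055C), which encodes the phosphoribosyltransferase that opens the pathway, had signals of 2708, 2833 and 2276 on the biofilm arrays and 545, 475 and 625 on the bottom layer arrays. The groups were far apart and the spread within each was small, a rise of 4.65-fold (log2 fold change 2.22, SE 0.16, adjusted p = 1.92e-06). HIS7 (YBR248C), the glutamine amidotransferase of the fifth step, read 1598, 841 and 2379 against 342, 245 and 339. Its biofilm signals were all higher than those of the bottom layer but spread widely, with the second biofilm array lowest, and the rise was 4.64-fold (log2 fold change 2.21, SE 0.31, adjusted p = 0.000138).

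HIS3 (YOR202W), imidazoleglycerol-phosphate dehydratase, read 3526, 3574 and 4601 in the biofilm and 1139, 1219.8 and 1541 in the bottom layer, a 2.98-fold rise (adjusted p = 2.55e-05). A dimmer probe set for HIS3 gave 1344, 1700.1 and 2175 against 659.8, 475 and 365, again without overlap, with a log2 fold change of 1.78 beside 1.57 for the brighter one. HIS5 (YIL116W), the aminotransferase that follows, rose 2.3-fold from 427 ± 142 to 968 ± 101 (mean ± SD, n = 3 in each group, as for all such values; adjusted p = 0.00101). HIS2 (YFR025C), the histidinol phosphatase, had 426, 416 and 433 against 206, 196 and 169, and its biofilm arrays were nearly equal to one another. It rose 2.14-fold (adjusted p = 0.000172).

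HIS4 (YCL030C), a trifunctional enzyme that acts at early and late steps, was the exception in size. Its signals were 7046, 6186 and 9551 in the biofilm and 4122, 3197 and 7008 in the bottom layer. The third bottom layer array reached the level of the biofilm arrays, so the groups overlapped. The log2 fold change was 0.72 (95% interval 0.10 to 1.34, adjusted p = 0.0437), a call that was lost without biofilm replicate 1 (0.76, adjusted p = 0.0711), biofilm replicate 3 (0.54, 0.159), bottom replicate 1 (0.66, 0.135) or bottom replicate 2 (0.47, 0.129), and under median centring (0.52, 0.183). With the ACT1 ratio as a covariate it was 1.15. HIS6 (YIL020C), the isomerase of the fourth step, was dim at 119, 124 and 125 against 52.0, 70.0 and 59.7, with no overlap. Without a filter on dim genes its log2 fold change was 0.86 (adjusted p = 0.00192).

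**Figure D3:**
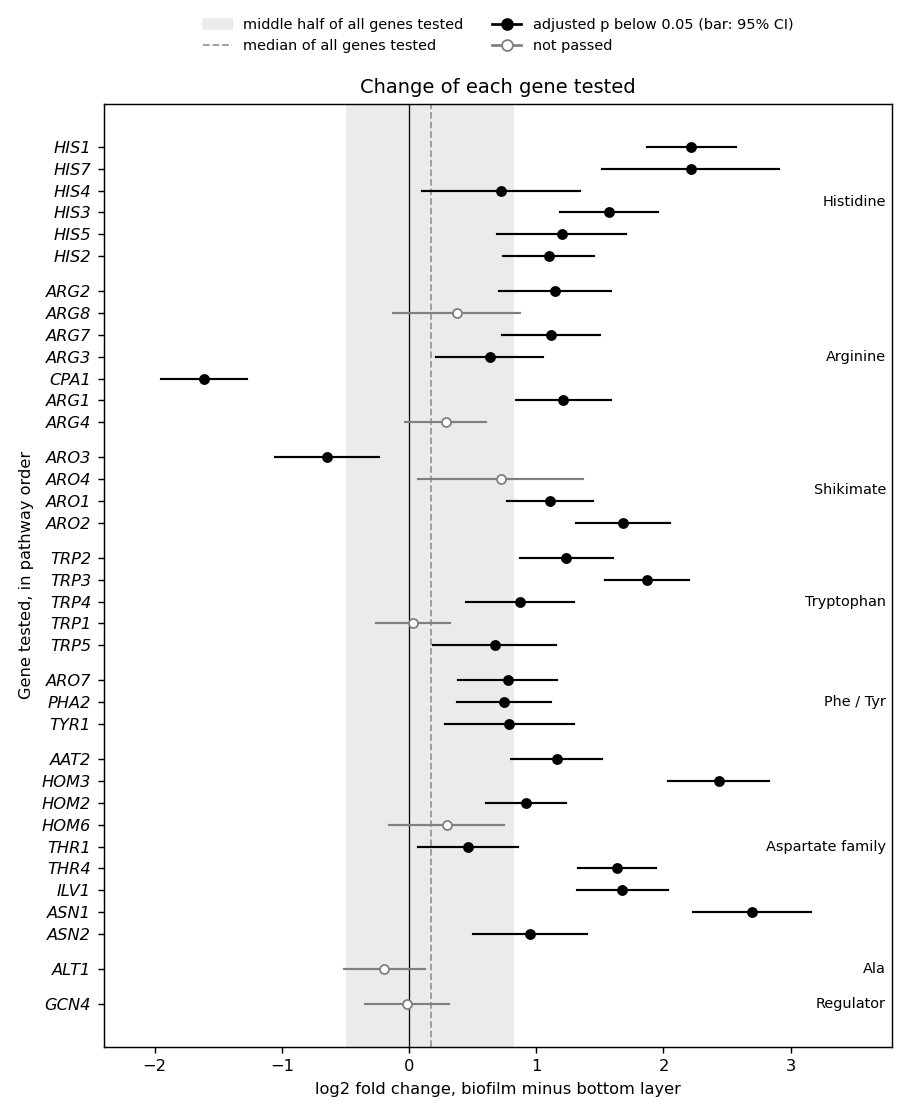
Log2 fold change (biofilm minus bottom layer, x axis) of the 36 genes tested in pathway order, with 95% confidence intervals from the limma fit, filled where the adjusted p was below 0.05. The grey band spans the quartiles of all 4242 genes tested (-0.49 to 0.82) and the dashed line their median (0.17). HIS1, HIS7, HOM3 and ASN1 have the largest rises, each above 2, and CPA1 and ARO3 lie below 0.

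Of the 7 arginine genes tested, 4 were higher (57.1%, where 38.0% of all genes were). Only 1 was lower (14.3%, where 24.4% of all genes were), and 2 failed the threshold. The share lower was under that of all genes, so calls in both directions are not read as a property of the pathway. The median log2 fold change of the 7 was 0.63, beside 0.17 for all genes tested. CPA1 (YOR303W), the small subunit of the carbamoyl phosphate synthetase for arginine, whose mRNA carries a leader peptide through which arginine is known to lower its translation, read 1815, 2114 and 1751 in the biofilm and 5336, 5961 and 6099 in the bottom layer. Every bottom layer array was above every biofilm array, and CPA1 was 3.05-fold lower in the biofilm (log2 fold change -1.61, SE 0.15, adjusted p = 1.01e-05).

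ARG2, ARG7 and ARG1 were higher in the biofilm, each by over 2-fold. ARG2 (YJL071W), which acetylates glutamate at the first step of ornithine synthesis, read 258, 283 and 228 against 95.2, 141 and 90.1, a rise of 2.21-fold (adjusted p = 0.000516). ARG7 (YMR062C), which transfers the acetyl group and frees ornithine, rose 2.17-fold from 600.4 ± 118 to 1311 ± 165 (adjusted p = 0.000265). ARG1 (YOL058W), argininosuccinate synthetase, read 6135, 6336 and 6993 against 2939.7, 2336 and 3146. Its groups were well apart, with a rise of 2.32-fold (log2 fold change 1.21, SE 0.17, adjusted p = 0.000121).

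ARG3 was higher by less, and ARG4 and ARG8 did not pass. ARG3 (YJL088W), ornithine carbamoyltransferase, read 1494, 1299.7 and 2133 against 987, 959 and 1153, a 1.55-fold rise (adjusted p = 0.0138) that did not pass without biofilm replicate 3, the highest array (log2 fold change 0.43 in place of 0.63, adjusted p = 0.0527), or under median centring (0.43, 0.0934). ARG4 (YHR018C), the lyase that releases arginine, read 3777, 3484 and 3274 against 2939, 2764 and 2908. Its groups did not overlap, yet the log2 fold change of 0.29 did not pass (95% interval -0.031 to 0.61, adjusted p = 0.104); it was 0.33 with adjusted p = 0.0364 under quantile normalization and 0.087 under median centring. ARG8 (YOL140W), acetylornithine aminotransferase, overlapped, at 292, 429 and 469 against 255, 385 and 265 (log2 fold change 0.37, adjusted p = 0.169). It ranged from 0.15 under quantile normalization to 0.57 without biofilm replicate 1 (adjusted p = 0.0546), fell to 0.24 without biofilm replicate 3, and passed with array weights (0.49, adjusted p = 0.0297) and without bottom replicate 2 (0.55, 0.0471).

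On the common aromatic pathway ARO1 and ARO2 were higher in the biofilm, while of the isoenzymes at its entry ARO3 was lower and ARO4 did not pass. ARO1 (YDR127W), a multifunctional enzyme that carries the middle of the shikimate pathway, read 3187, 2732 and 2864 in the biofilm against 1348, 1176 and 1533 in the bottom layer, a 2.16-fold rise (adjusted p = 0.000116). ARO2 (YGL148W), chorismate synthase, read 4907, 5628 and 5343 against 1839, 1346 and 1777. The lowest biofilm array was well above the highest bottom layer array, and the rise was 3.2-fold (log2 fold change 1.68, SE 0.17, adjusted p = 1.28e-05).

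ARO3 (YDR035W), the entry enzyme that phenylalanine inhibits, read 989.8, 1039 and 733 against 1403, 1723 and 1219. Here all bottom layer arrays were the higher ones, and ARO3 was 1.57-fold lower in the biofilm (log2 fold change -0.65, SE 0.18, adjusted p = 0.0104). ARO4 (YBR249C), the entry enzyme that tyrosine inhibits, read 2819, 1261 and 3229 against 1456, 1309 and 1331. Biofilm arrays 1 and 3 were high and array 2 lay at the level of the bottom layer. ARO4 did not pass, with a log2 fold change of 0.72 (95% interval 0.072 to 1.37, adjusted p = 0.0519). Without biofilm replicate 2 it was 1.14 (adjusted p = 0.000401), and without biofilm replicate 3 0.46 (adjusted p = 0.198). It also passed with the replicate block (0.72, adjusted p = 0.0243) and with the dimmest 50% of genes left out (0.72, 0.0428), and was 0.45 with the ACT1 ratio as a covariate (adjusted p = 0.295).

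ARO4 and HIS7 share the low second biofilm array. They are neighbours, with 0 annotated genes between them in the RefSeq table of assembly R64, used here for names and order only. Among the 36 genes tested they had the largest standard deviations between biofilm arrays on the log2 scale, 0.75 for HIS7 and 0.73 for ARO4, where the median gene of the set had 0.14. This pair was singled out after its values were seen. On the bottom layer arrays their standard deviations were 0.26 and 0.081, where the median was 0.22.

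In the tryptophan branch 4 of 5 genes were higher (80%, where 38.0% of all genes were). TRP2 and TRP3 encode the components of anthranilate synthase, which turns chorismate towards tryptophan, and TRP3 also carries a later step. TRP3 (YKL211C) read 1837, 2061 and 1752 in the biofilm against 569, 450.2 and 496 in the bottom layer, a 3.65-fold rise (log2 fold change 1.87, SE 0.15, adjusted p = 3.53e-06). TRP2 (YER090W) read 1613, 1485 and 2018 against 809.7, 644 and 681, a 2.36-fold rise (adjusted p = 9.01e-05). Neither gene had overlapping groups. TRP4 (YDR354W), the next transferase, rose 1.83-fold from 334 ± 83.9 to 614 ± 54.1 (adjusted p = 0.00241).

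TRP1 (YDR007W), the isomerase between them and the last step, did not pass. It read 1410.1, 1434 and 1435 against 1352, 1456 and 1372, with all arrays close together. Its log2 fold change was 0.034 (95% interval -0.26 to 0.33, adjusted p = 0.837), and its sign turned under quantile normalization and median centring. TRP5 (YGL026C), tryptophan synthase, read 5518, 7270.2 and 6249.9 against 4320.0, 2879 and 4935, a 1.6-fold rise (log2 fold change 0.67, adjusted p = 0.0199). The call was lost without biofilm replicate 2 (0.57, adjusted p = 0.0782), without bottom replicate 2 (0.45, 0.0602) and under median centring (0.47, 0.141), and the value was 1.07 with the ACT1 ratio as a covariate.

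All 3 genes of phenylalanine and tyrosine synthesis were higher, by less than 2-fold. ARO7 (YPR060C), chorismate mutase, read 164, 151 and 141 in the biofilm and 74.8, 73.3 and 100.2 in the bottom layer, a 1.71-fold rise (adjusted p = 0.00283). PHA2 (YNL316C), prephenate dehydratase of the phenylalanine branch, read 175, 170.2 and 161 against 81.8, 108 and 94.1, a 1.68-fold rise (adjusted p = 0.00277). TYR1 (YBR166C), prephenate dehydrogenase of the tyrosine branch, read 302, 290.1 and 221 against 162, 193 and 104. The groups of none of these genes overlapped. The bottom layer means of ARO7 (82.8) and PHA2 (94.6) lay under the limit on dim signals (97.5). Both passed it only through their biofilm signals, so higher was the only call open to them. That all 3 genes were higher is therefore not read as a result. TYR1 (1.73-fold, log2 fold change 0.79, adjusted p = 0.0117) did not pass with the ACT1 ratio as a covariate (0.45, adjusted p = 0.137).

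The aspartate family held the largest rises of the set. Of 9 genes tested 8 were higher (88.9%, where 38.0% of all genes were). Their median log2 fold change over the 9 was 1.16, beside 0.17 for all genes tested. ASN1 (YPR145W), an asparagine synthetase, read 3798, 4580.1 and 3846 on the biofilm arrays and 874, 498 and 531 on the bottom layer arrays. Even the highest bottom layer array was far below the lowest biofilm array, and the rise was 6.47-fold (log2 fold change 2.69, SE 0.21, adjusted p = 2.98e-06), above 99.7% of all genes tested. ASN2 (YGR124W), the other asparagine synthetase, read 4588, 4244 and 6043 against 2562, 2019.7 and 3123, a 1.93-fold rise (log2 fold change 0.95, SE 0.20, adjusted p = 0.00203). ASN1 and ASN2 are close copies, so each probe set may have read some RNA of the other gene, and the size of each change is uncertain.

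HOM3 (YER052C), the aspartate kinase that opens homoserine synthesis and that threonine inhibits, read 1465, 1223 and 1290.0 against 274, 181 and 251, a 5.4-fold rise (log2 fold change 2.43, SE 0.18, adjusted p = 2.28e-06). The following steps moved by less. HOM2 (YDR158W), the semialdehyde dehydrogenase, read 2973, 2610.1 and 2694 against 1488, 1332 and 1533, a 1.89-fold rise (adjusted p = 0.000237). HOM6 (YJR139C), homoserine dehydrogenase, read 8772, 9575 and 9923 against 7610.4, 6134 and 9663. The third bottom layer array was as high as the biofilm arrays, and HOM6 did not pass (log2 fold change 0.29, 95% interval -0.16 to 0.75, adjusted p = 0.23). Without bottom replicate 3 it passed (0.46, adjusted p = 0.0318), as it did under quantile normalization (0.64, 0.000231) and with the ACT1 ratio as a covariate (0.59, 0.00558), and without bottom replicate 2 it was 0.13.

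Beyond homoserine, THR1 (YHR025W), the kinase towards threonine, read 5243, 5887 and 5072 against 3936, 3266 and 4625. The groups did not overlap, and the 1.38-fold rise (log2 fold change 0.46, adjusted p = 0.0396) was the smallest called. It passed without bottom replicate 3, but without any of the other 5 arrays adjusted p was 0.0639 to 0.131, with the replicate block 0.0717, and under median centring 0.328 (log2 fold change 0.26); with the ACT1 ratio as a covariate the value was 0.72. THR4 (YCR053W), threonine synthase, read 1590.1, 1567 and 1481 against 523, 492 and 451, with little spread in either group and a 3.1-fold rise (log2 fold change 1.63, SE 0.14, adjusted p = 4.94e-06). ILV1 (YER086W), the threonine deaminase that starts isoleucine synthesis, read 1697, 1662 and 1351 against 531, 499.9 and 409.6, a 3.2-fold rise (adjusted p = 1.12e-05).

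Aspartate aminotransferases link this family to glutamate. AAT2 (YLR027C), the cytosolic enzyme, read 6852, 6198 and 6726 in the biofilm against 3057, 3274 and 2537 in the bottom layer, a 2.23-fold rise (adjusted p = 0.000128). AAT1 (YKL106W), the mitochondrial enzyme, was dim, with 226, 166 and 270.3 against 26.9, 61.2 and 7.41. The biofilm arrays were all above the bottom layer arrays, and the third of the latter lay below the brightest unspiked control probe set of its array, so a size of the change is uncertain. Without a filter on dim genes its log2 fold change was 2.45 (adjusted p = 0.000276).

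ALT1 and GCN4 did not pass. ALT1 (YLR089C), the alanine transaminase of mitochondria, read 1874, 1660.5 and 1636 in the biofilm and 1783, 2059 and 2081 in the bottom layer, with overlap (log2 fold change -0.19, 95% interval -0.51 to 0.12, adjusted p = 0.259). It passed under median centring (-0.39, adjusted p = 0.0499), and was -0.084 with array weights. GCN4 (YEL009C) was bright on every array, at 3367, 3578 and 3032 against 3175, 3285 and 3610.0. The groups were interleaved, with a log2 fold change of -0.015 (95% interval -0.35 to 0.32, adjusted p = 0.941), whose sign differed between settings. The array reads the amount of GCN4 mRNA and not of the protein.

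Whether partner genes shifted unequally was read from their difference on the log2 scale within each array. This was done for 4 pairs, and AAT1 with AAT2 was not compared because AAT1 was dim. A level of such a difference depends on the probes, and only its shift between the groups was compared, by exact two-sided permutation over 20 labellings, where 3 arrays against 3 cannot go below p = 0.1. ASN1 minus ASN2 was -0.27, 0.11 and -0.65 in the biofilm and -1.53, -1.99 and -2.52 in the bottom layer, a shift of 1.74. ALT1 minus ALT2 was 2.75, 2.79 and 2.71 against 1.12, 1.23 and 1.12, a shift of 1.60. In this pair ALT1 did not pass on its own, and ALT2, the other alanine transaminase gene, was lower in the biofilm, at 243 ± 19.9 against 877 ± 68.6.

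ARO3 minus ARO4 was -1.50, -0.28 and -2.11 in the biofilm against -0.053, 0.39 and -0.13 in the bottom layer, a shift of -1.37. TRP2 minus TRP3 was -0.19, -0.47 and 0.20 against 0.50, 0.50 and 0.45, a shift of -0.63. In each of the 4 pairs the groups did not overlap, which also held for 68.0% of single genes tested. Each pair therefore had the smallest p this design allows (exact p = 0.1, and 0.1 after Benjamini-Hochberg adjustment over the 4 pairs). None passed the threshold and none could have, so the test decides nothing and the shifts are description. How many other pairs of genes separate in this way was not counted. The partners in ASN1 with ASN2, ARO3 with ARO4 and ALT1 with ALT2 are similar in sequence, and RNA of one that binds probes of the other cannot be separated here.

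**Figure D4:**
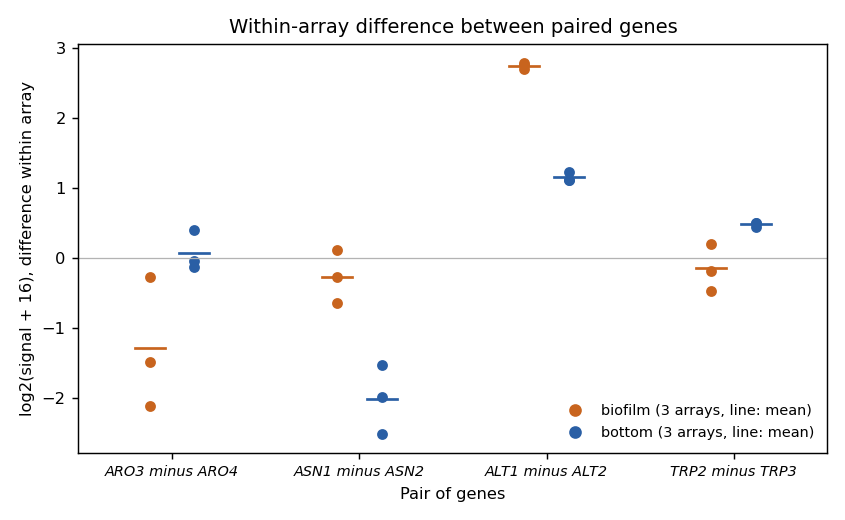
Difference in log2(signal + 16) within each array (y axis) for 4 pairs of partner genes (x axis), with a point for each of the 3 biofilm and 3 bottom layer arrays and a line at the group mean. The points of the groups do not overlap in any pair. The shift is 1.74 for ASN1 minus ASN2, 1.60 for ALT1 minus ALT2, -1.37 for ARO3 minus ARO4 and -0.63 for TRP2 minus TRP3.

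Genes that control, use or carry the same amino acids were read beside the synthesis genes, in lists chosen with earlier results known. Of 11 general control regulators, most of which act from the sensing of uncharged tRNA to translation initiation, 7 were higher (GCN1, GCN3, GCN20, GCD2, GCD6, GCD7 and SUI2), or 63.6% where 38.0% of all genes were. Of these 7, the calls of GCN20, GCD2, GCD6 and SUI2 were lost under at least 1 alternative. GCD11 and PCL5 were lower, or 18.2% where 24.4% of all genes were, and GCN2 and GCD1 did not pass (median log2 fold change of the list 0.54). The list joins genes of unlike and partly opposite roles, so these shares give no direction of the general control. GCN1, an activator of the kinase Gcn2, read 1175, 1161 and 1142 in the biofilm against 353, 257 and 306 in the bottom layer, a 3.69-fold rise (adjusted p = 4.8e-06). The log2 fold change of GCN3 was 0.91 (adjusted p = 0.00087), and that of GCD7 was 0.83 (adjusted p = 0.00198), both subunits of the exchange factor eIF2B. GCD11, the gamma subunit of eIF2, went the other way, at 165, 122 and 111 against 541, 755 and 322, 3.58-fold lower in the biofilm (adjusted p = 0.000231). GCN2 itself was at 123, 80.2 and 137 against 90.4, 89.9 and 108 (log2 fold change 0.18, adjusted p = 0.456), with 0.38 without biofilm replicate 2 and 0.046 without biofilm replicate 3. PCL5, a cyclin that promotes breakdown of Gcn4, was lower by less (log2 fold change -0.75, adjusted p = 0.0375), a call lost without biofilm replicate 1 (-0.81, adjusted p = 0.0553), biofilm replicate 3 (-0.59, 0.133) or bottom replicate 2 (-0.41, 0.118). The calls of GCN20 (0.49, adjusted p = 0.0466) and GCD2 (0.54, 0.0266) were each lost without any 1 of several arrays, with adjusted p up to 0.157 and 0.0911. They were also lost under quantile normalization (GCN20 0.28, adjusted p = 0.16, and GCD2 0.36, 0.0934) and median centring (GCN20 0.28, 0.17, and GCD2 0.34, 0.129). With the ACT1 ratio as a covariate the values were 0.17 for GCN20 (adjusted p = 0.465), 0.50 for GCD2 (adjusted p = 0.0935), 0.42 for SUI2 (adjusted p = 0.111, from 0.88) and 0.59 for GCD6 (adjusted p = 0.0505, from 0.73). GCD1 passed without bottom replicate 2 (0.74, adjusted p = 0.00575).

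Of 4 pathway regulators tested out of 7, 3 were lower in the biofilm, or 75% where 24.4% of all genes were, and BAS1 did not pass. The lower ones are the genes of the arginine repressor that could be tested. The biofilm means of ARG82 (57.5) and ARG80 (74.0) lay under the limit on dim signals (97.5). Both passed it only through the bottom layer, so lower was the only call open to them. The 75% is therefore not read as a result. ARG82, an inositol polyphosphate kinase needed for that repression, read 57.2, 47.6 and 67.7 in the biofilm against 362, 405 and 237 in the bottom layer, 4.7-fold lower (log2 fold change -2.23, adjusted p = 1.25e-05). ARG80 read 76.1, 65.0 and 81.0 against 124, 377 and 347, with the first bottom layer array closest to the biofilm (log2 fold change -1.60, adjusted p = 0.00196). MCM1, its DNA-binding partner and its neighbour with 0 annotated genes between, read 137, 111 and 86.5 against 159, 265 and 189.9 (log2 fold change -0.78, adjusted p = 0.011). ARG81, the arginine sensor of the complex, was too dim to be tested, at 76.4, 90.4 and 78.2 against 57.6, 59.0 and 66.7, with the biofilm arrays higher.

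Of 6 other enzymes and carriers tested, ORT1 and ARO8 were higher (33.3%, where 38.0% of all genes were) and CHA1, ALT2, GLY1 and ARO9 lower (66.7%, where 24.4% of all genes were). ORT1, which carries ornithine out of mitochondria, read 576, 582 and 744 against 249, 267 and 248, a 2.39-fold rise (adjusted p = 8.18e-05). ARO8, the aromatic aminotransferase mainly of synthesis, rose 2.13-fold to 3209.6 ± 262 (adjusted p = 0.000209), while ARO9, that mainly of breakdown, was at 488 ± 26.2 against 716 ± 43.5 (log2 fold change -0.54, adjusted p = 0.00745). CHA1, the serine and threonine deaminase of breakdown, showed the largest difference of these lists. It read 111, 81.4 and 86.9 in the biofilm against 1856, 1801 and 2068 in the bottom layer, 17.7-fold lower (adjusted p = 7.98e-08). Its biofilm mean of 93.0 lay under the limit on dim signals (97.5), so it was tested only through the bottom layer. Lower was the only call open to CHA1. The 66.7% includes it and is therefore not read as a result. ALT2 was 3.45-fold lower (adjusted p = 5.4e-06), and GLY1, which splits threonine into glycine, had a log2 fold change of -0.84 (adjusted p = 0.00572).

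Of 7 genes for the use of arginine, aromatic amino acids and asparagine, PUT1, ARO10, PUT2 and CAR2 were lower (57.1%, where 24.4% of all genes were), ASP1 was higher (14.3%, where 38.0% were), and CAR1 and PDC5 did not pass. ARO10, a decarboxylase of aromatic breakdown, read 149, 97.7 and 104 against 582, 571 and 946, 5.32-fold lower in the biofilm (adjusted p = 1.18e-05). PUT2 and CAR2, which act on the way from arginine to glutamate, had log2 fold changes of -1.19 (adjusted p = 9.68e-05) and -0.86 (adjusted p = 0.00127), and PUT1, the proline oxidase gene, read 450.3, 397 and 344 against 3915, 3755 and 5339 (log2 fold change -3.39, adjusted p = 3.64e-07). The arginase gene CAR1 read 4888, 4999 and 5177 against 5513, 5219.8 and 6279 and did not pass (log2 fold change -0.17, adjusted p = 0.366), with -0.095 without bottom replicate 3 and -0.017 under quantile normalization. ASP1, the cytosolic asparaginase, rose 2.24-fold from 1001 ± 69.4 to 2267 ± 176 (adjusted p = 4.62e-05).

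Of 8 amino acid permease genes, TAT1 and TAT2 were higher (25%, where 38.0% of all genes were), GNP1, ALP1 and AGP1 lower (37.5%, where 24.4% were), and HIP1, CAN1 and GAP1 did not pass. TAT1 and TAT2 encode permeases that take up tryptophan and tyrosine. TAT1 read 706, 623 and 641 against 155, 263 and 148, a 3.38-fold rise (adjusted p = 5.13e-05). TAT2 read 260.1, 255 and 248 against 129, 128 and 117, a 1.92-fold rise (adjusted p = 0.000435). GNP1, a broad permease that also carries threonine and asparagine, read 682, 501 and 499.6 against 2876, 1827 and 2079, 3.91-fold lower (adjusted p = 1.43e-05). ALP1, of the basic amino acid permeases, had a log2 fold change of -1.18 (adjusted p = 0.00149). That of AGP1 was -0.49 (adjusted p = 0.0375), a call lost without any 1 array other than bottom replicate 2, with adjusted p of 0.0744 to 0.108, with the replicate block (-0.49, adjusted p = 0.0519), and with the ACT1 ratio as a covariate (-0.24, adjusted p = 0.214). CAN1, the arginine permease gene, read 408, 239.9 and 320.0 against 746, 1008 and 243, with the third bottom layer array at the biofilm level (log2 fold change -0.82, adjusted p = 0.111). CAN1 passed as lower without bottom replicate 3 (-1.41, adjusted p = 0.000534), under quantile normalization (adjusted p = 0.032), median centring (-1.02, 0.0269) and array weights (-1.14, 0.00238), and with the ACT1 ratio as a covariate (-1.87, 4.87e-05). Without bottom replicate 2 it was -0.42 (adjusted p = 0.337). The histidine permease gene HIP1 did not pass, at 496, 348 and 468 against 417, 406 and 389 (log2 fold change 0.095, adjusted p = 0.655).

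**Figure D5:**
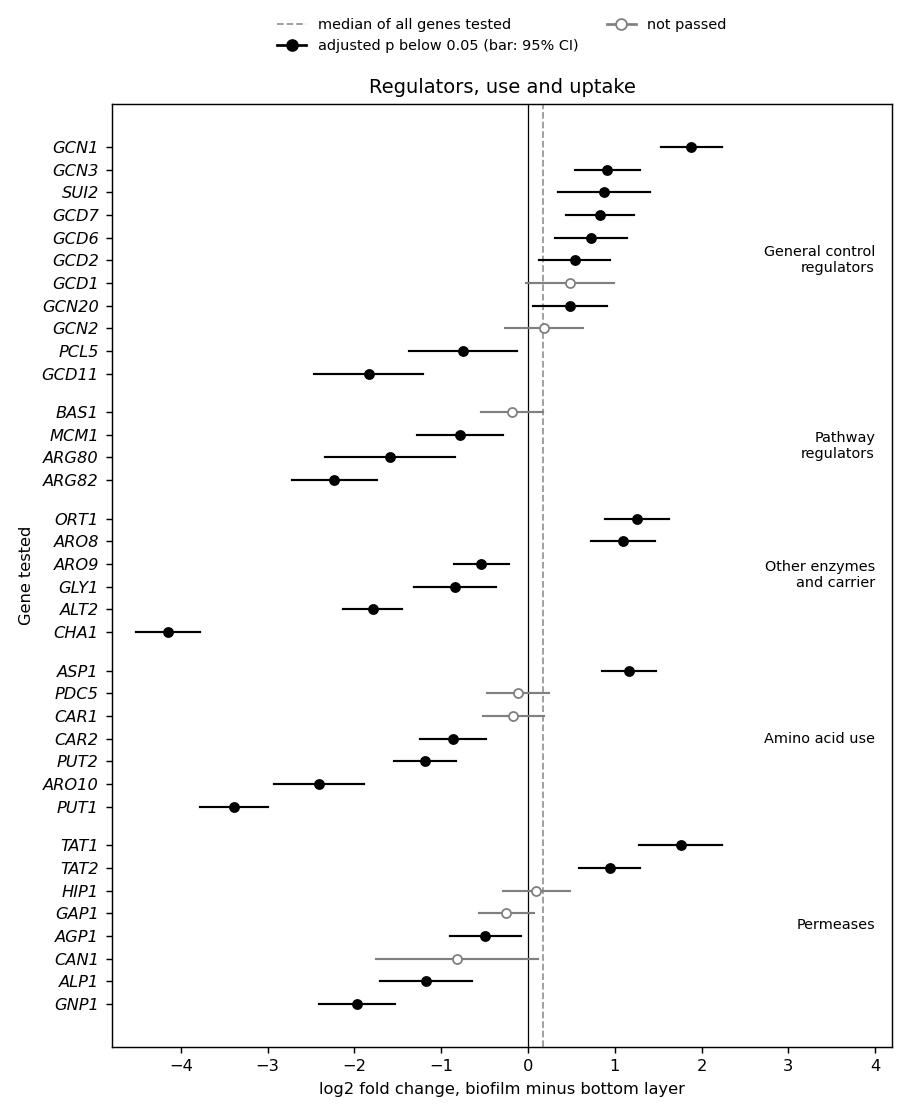
Log2 fold change (biofilm minus bottom layer, x axis) of the tested regulators, other enzymes, genes of amino acid use and permeases, sorted within each list, with 95% confidence intervals and filled where the adjusted p was below 0.05. The dashed line is the median of all genes tested (0.17). CHA1 lies lowest at -4.15 and GCN1 highest at 1.88.

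Over the set, arrays of a group had similar median levels, which does not show that they agreed gene by gene. The standard deviations on the log2 scale reached 0.75 for HIS7 in the biofilm and 0.58 for HIS4 in the bottom layer. The median deviation of the 36 genes from their group mean lay between -0.021 and 0.018 on the log2 scale for the biofilm arrays, and between -0.090 and 0.047 for the bottom layer arrays. The second bottom layer array was the lowest of its group for 20 of the 36 genes, and the third was the highest for 15. Bottom layer signals of the set spread somewhat more, with a median standard deviation of 0.22 against 0.14 in the biofilm, a difference that was not tested.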

How the data were processed

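Biotin-labelled amplified RNA from 3 biofilm and 3 bottom layer samples was read on Affymetrix arrays, as the labels' protocols state. Each probe set has 1 deposited intensity per array on a linear scale. The submitters' processing notes name MAS5, without version or settings. With the lowest and highest 2% left out, every array had nearly the same mean (499.8 to 499.9), a scaling that hides any difference in total mRNA. Of 9335 probe sets, 6504 paired with 1 gene in a platform table, 328 with several, 2443 were not listed there and 60 were controls; names were updated through RefSeq's table of assembly R64.

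Values were taken as log2(signal + 16). The brightest probe set per gene was kept, and the dimmest 25% of genes (mean log2 value), 1414 of 5656, were left out. The comparison used lmFit and eBayes (trend allowed) from limma 3.58.1 under R 4.3.3, two-sided, adjusted after Benjamini-Hochberg over 4242 genes at 0.05, and was tested on simulated data. Precision is limited by the number of arrays, and fold changes had a median SE of 0.18 (log2). The highest of 19 unspiked control probe sets was read as background. No 2 arrays held identical values. All members are named; of related lists, up to 4 genes by smallest p, and GCN2, PCL5, ARO9, GLY1, CAR1, CAR2, AGP1, HIP1, ARG81, CAN1 and those listed without values after their values were seen. Members and lists were chosen with earlier results of these data known. Alternatives were other pseudocounts, filters, normalizations, variance models, array weights, a replicate block, the ACT1 ratio as a covariate, other probe sets and leaving out each array.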

Additional observations from a re-analysis of the deposited data

How the results depend on the processing

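Of the 29 members called, 24 passed in the same direction under every alternative in which they were tested, and HIS4, ARG3, TRP5, TYR1 and THR1 were lost under at least 1, with the values given above. The count called higher lay between 23 and 29 and that called lower at 2 to 3 over all alternatives, and from 24 to 28 and at 2 when 1 array was left out. The median log2 fold change of the members, 0.94, was 0.73 under median centring and 0.93 to 1.07 with 1 array left out. Over all genes, 1450 to 1592 were higher and 926 to 1080 lower with 1 array left out; all other counts were within 1.5 times of 1613 and 1037. Signs turned only for genes that did not pass: TRP1 was -0.036 under quantile normalization and -0.17 under median centring, and GCN4 was 0.0053 under quantile normalization, 0.061 with array weights, 0.089 with the ACT1 ratio as a covariate and -0.069 to 0.050 with 1 array left out. HIP1 was -0.099, -0.11 and -0.034 under quantile normalization, median centring and the ACT1 ratio, and -0.00068 to 0.25 with 1 array left out. GCN2 was -0.019 under median centring, and PDC5 0.019 with the ACT1 ratio and -0.19 to 0.016 with 1 array left out; the cause was not tested. With the replicate block 27 members were higher and 2 lower, and 1590 and 1046 of all genes; among the genes named, ARO4 was gained, and AGP1 (adjusted p = 0.0519) and THR1 were lost (adjusted p = 0.0717). Deviations of same-numbered arrays from their group means had r over genes of -0.013, -0.093 and 0.16, and arrays of unlike number -0.21 to 0.24. The arrays numbered 3 correlated best with each other, and those numbered 1 and 2 did not. Deviations from a mean of 3 arrays depend on one another, so these r values cannot decide whether arrays were paired. The 4 shifts between partner genes kept their direction under other pseudocounts and normalizations. Signals near the unspiked controls, as for AAT1 in the bottom layer, give no reliable fold.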
